A study of Schmidtea mediterranea with 32 samples.

Results

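Among the contigs of the sexual transcript assembly, 64 of 93783 were at or above 0.5 of the control level after 4 feedings of nhr-1 RNAi and at or below 0.125 of it after 6 feedings. They were chosen from their CPM, the read count scaled to the library's sexual-assembly total without the most abundant contig, SmedSXL_088910. A contig had to reach a mean of 5 CPM in the control at 6 feedings, with every nhr-1 RNAi library at 6 feedings below every control library. Its control mean at 8 feedings, divided by that at 4 feedings, had to be under 3. Unless stated otherwise, ratios are of group means with 0.1 CPM added to both. The file lists 177783 named sequences, and 14894 sexual-assembly contigs reached the control level required.

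The animals were Schmidtea mediterranea planarians of the sexual biotype labelled S2F2, and poly(A) RNA was taken from whole animals. RNAi against nhr-1 was compared with control RNAi, labelled UNC, after 4, 6, 8 and 11 feedings. Each of the 8 groups has 4 libraries except the control at 6 feedings, which has 3, and a single control library is labelled 7 feedings. The labels do not say whether the libraries came from separate cultures or how many animals were pooled in each, so p-values measure only the spread between these libraries, which may be technical. Sexual-assembly counts ranged from 4912053 to 9128854 per library. SmedSXL_088910 took from 6.77% to 47.5% of them and exceeded 30% in 3 libraries, which were replicates s2 and s3 of the control at 11 feedings and s2 of nhr-1 RNAi at 4 feedings. Since the identifiers carry no gene names, the knocked-down gene was not analysed here and does not check the labels.

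As background, the sexual biotype of this flatworm is a hermaphrodite that keeps ovaries, testes and accessory organs such as glands and copulatory structures, and it can shrink and regrow them throughout life. Nuclear hormone receptors are transcription factors of which many respond to lipid-soluble ligands. In this species nhr-1 is known to be needed for the development and maintenance of the reproductive system. In whole animals, fewer cells of a type cannot be told apart from less RNA per cell. None of the 64 contigs is annotated in the files, so no gene role is given for any of them.

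The 64 contigs as a group stood below the mean control but overlapping it at 4 feedings, and far below it at 6, 8 and 11. The values at 4 and 6 feedings chose the contigs and are given as a description. The median contig stood at 6.90, 8.23, 11.1 and 11.2 CPM in nhr-1 RNAi replicates 1, s1, s2 and s3 at 4 feedings, and at 16.4, 7.81, 13.8 and 14.5 CPM in the control replicates of the same names. These ranges overlap. At 6 feedings it was 0.774, 1.62, 1.65 and 1.59 CPM in nhr-1 RNAi replicates 1, s1, s2 and s3 against 14.5 to 15.4 CPM in the 3 controls. At 8 feedings, where no nhr-1 RNAi library entered the choice, it was 1.02, 0.653, 1.38 and 1.41 CPM in replicates 1, s1, s2 and s3 against 9.53 to 14.9 CPM in the controls. At 11 feedings, where no library entered the choice, it was 0.743, 0.763, 0.722 and 1.17 CPM in replicates 1, s2, s3 and s4 against 10.8 to 16.0 CPM in the controls. The groups did not overlap at 8 or 11 feedings. The control library at 7 feedings stood at 13.3 CPM.

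Summed over the 64 contigs, the control sums were 5803 ± 872 CPM at 4 feedings, 6007 ± 1253 CPM at 8 and 9427 ± 5748 CPM at 11 (SD, n = 4 each). At 6 feedings the sum was 5465 ± 1129 CPM over the 3 controls (SD, n = 3). Under nhr-1 RNAi the sums were 3910 ± 1997 CPM at 4 feedings, 509 ± 248 CPM at 6, 239 ± 90.2 CPM at 8 and 173 ± 42.6 CPM at 11 (SD, n = 4 each). The wide spread of the control at 11 feedings came from replicate s3 at 17389 CPM and replicate s2 at 9871 CPM, against 4921 and 5525 CPM in replicates 1 and s1. The high control libraries are those in which SmedSXL_088910 took 47.5% and 45.6% of the sexual-assembly counts. A large part of each sum belongs to the 3 most abundant contigs, and without them the control sums at 11 feedings were 1668 to 2993 CPM.

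**Figure D1:**
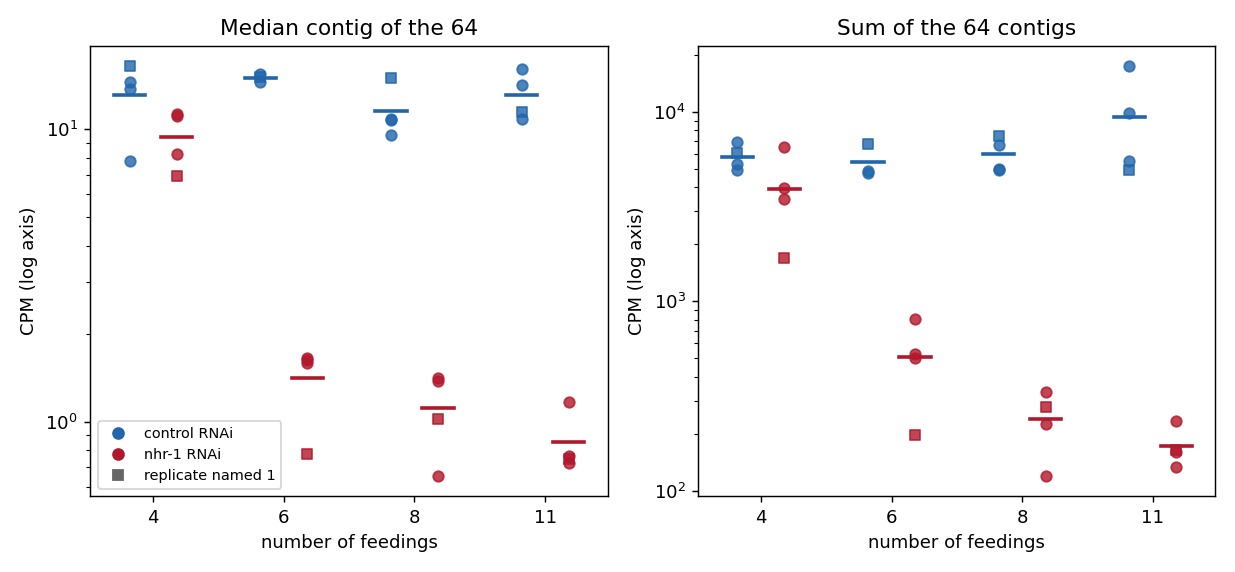
Level of the 64 contigs in each library in CPM (log axis) by number of feedings, as the median contig (left) and as the sum (right). Points are libraries, squares mark replicates named 1, and bars are group means. At 6, 8 and 11 feedings every nhr-1 RNAi library lies below every control library, and at 4 feedings the groups overlap.

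At 4 feedings the 64 contigs were not uniformly spared, and the libraries disagreed on which of them were lower. The ratio to control ranged from 0.526, near the limit of the choice, to 1.34 with a median of 0.737, and 5 contigs had a ratio above 1. Their upper quartile of 0.836 lay under the lower quartile of 0.883 of the 14894 contigs, whose median was 1.01. No contig had all nhr-1 RNAi libraries below all controls. The choice used the values at 4 feedings, and the share over the 14894 contigs at that time is not given here. Replicate 1 of nhr-1 RNAi was the lowest of the 4 libraries for 33 contigs and the highest for 15. Its own ratio was taken to the mean control and not to control replicate 1, so a shift shared by both replicates named 1 would enter it. That ratio ran from 0.0527 to 2.54 and was at or below 0.125 for 3 contigs. All 33 contigs lowest in nhr-1 RNAi replicate 1 were shorter than 1000 bases, with a median length of 502 bases. Of the 15 highest in replicate 1, 4 were shorter than 1000 bases, and the median length was 1565 bases. Leaving out replicate 1, s1 or s3 kept 63, 64 or 63 of the 64 contigs at a ratio of at least 0.5. Leaving out replicate s2, in which SmedSXL_088910 took 36.9% of the sexual-assembly counts, kept 52.

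Contigs lay close on either side of both limits of the choice. SmedSXL_009145 and SmedSXL_004464 were inside at 6 feedings with ratios of 0.1245 and 0.1244, and SmedSXL_007058 and SmedSXL_005640 were outside with 0.12501 and 0.12519. At 4 feedings SmedSXL_036857 and SmedSXL_005969 were inside with ratios of 0.526 and 0.533, and their ratios at 6 feedings were 0.0886 and 0.105. SmedSXL_016918 and SmedSXL_016919 were outside with 0.499 and 0.498, and their ratios at 6 feedings were 0.0162 and 0.0153.

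At 8 feedings 61 of the 64 contigs were lower under nhr-1 RNAi and 0 were higher in the quasi-likelihood test of edgeR, taking a Benjamini-Hochberg adjusted p under 0.05 as a call. Over all 45762 sequences tested, 11.3% were lower and 0.964% were higher. The fit took in 31 libraries, all 64 contigs passed its filter on low counts, and p-values were adjusted over all sequences. The median log2 fold change of the 64 contigs was -3.40, from -6.31 to -1.45, against a median of 0.15 over all tested sequences. All nhr-1 RNAi libraries lay below all controls for 59 of the 64, where 21.9% of the 14894 contigs with at least 5 CPM in the control at 6 feedings did so. The control libraries at 8 feedings had entered the choice through the limit on their ratio to 4 feedings.

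At 11 feedings 63 of the 64 were lower and 0 were higher by the same edgeR test, where 21.8% of all tested sequences were lower and 7.1% were higher. The median log2 fold change of the 64 was -4.09, from -9.93 to -2.0003, and the median over all tested sequences was 0.14. Without the 3 libraries rich in SmedSXL_088910 the median of the 64 was -3.47 and 63 were still lower, while 5532 of 47468 sequences were lower and 336 higher. With total counts alone the median of the 64 was -3.25. Without control replicate 1 at 11 feedings 59 of the 64 were lower, and 12118 of 45414 sequences were lower and 8608 higher. Groups did not overlap for 56 of the 64, against 14.7% of the 14894 contigs. At both 8 and 11 feedings, 60 of the 64 were called lower.

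The ratios to control of the 64 contigs at 8 and 11 feedings are set here beside those at 6, where the choice capped them at 0.125. A wider range at times without that cap follows in part from the choice and is a description. The median ratio to control was 0.107 at 6 feedings, 0.1003 at 8 and 0.0836 at 11, and the range was 0.027 to 0.1245 at 6 feedings and 0.0021 to 0.297 at 11. At 11 feedings 18 contigs were at or below 0.02 of the control. At the same time 26 contigs were above 0.125, the cap of the choice at 6 feedings. Between 8 and 11 feedings the ratio went down for 39 contigs and did not for the other 25.

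The lowest ratios at 11 feedings were mostly those of short contigs. With a split at 1000 bases that was chosen after the values were seen and so carries no test, the 45 shorter contigs had median ratios of 0.728, 0.105, 0.0962 and 0.049 at 4, 6, 8 and 11 feedings. The 19 longer ones had 0.755, 0.116, 0.110 and 0.165. Across the 64 contigs, length and the ratio at 11 feedings had a Spearman rho of 0.495, and at 8 feedings of 0.131. The contigs share the same libraries, so this is a description. These ratios also move with the control mean at 11 feedings, which was above that at 8 for 30 of the 64 contigs. Of the 19 longer contigs, only SmedSXL_019102 was among these. For the other longer contigs the control mean was lower at 11 than at 8 feedings, which by itself raises the ratio. The 8 contigs called higher in the control at 11 than at 8 feedings, described below, were 280 to 715 bases long. The split was not repeated without the 3 libraries rich in SmedSXL_088910, and the part of the control in it was not tested. The ratio at 11 feedings had a rho of -0.597 with the control level per kilobase and of 0.535 with the control ratio of 8 to 4 feedings. The control level per kilobase includes the control libraries at 11 feedings, which also form the denominator of the ratio. A negative rho between them is thus partly built in. The 33 contigs lowest in nhr-1 RNAi replicate 1 at 4 feedings had a median ratio of 0.0252 at 11 feedings, and the 15 highest in that replicate had 0.165. Their ranges at 11 feedings overlap, from 0.0021 to 0.170 and from 0.0122 to 0.290.

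**Figure D2:**
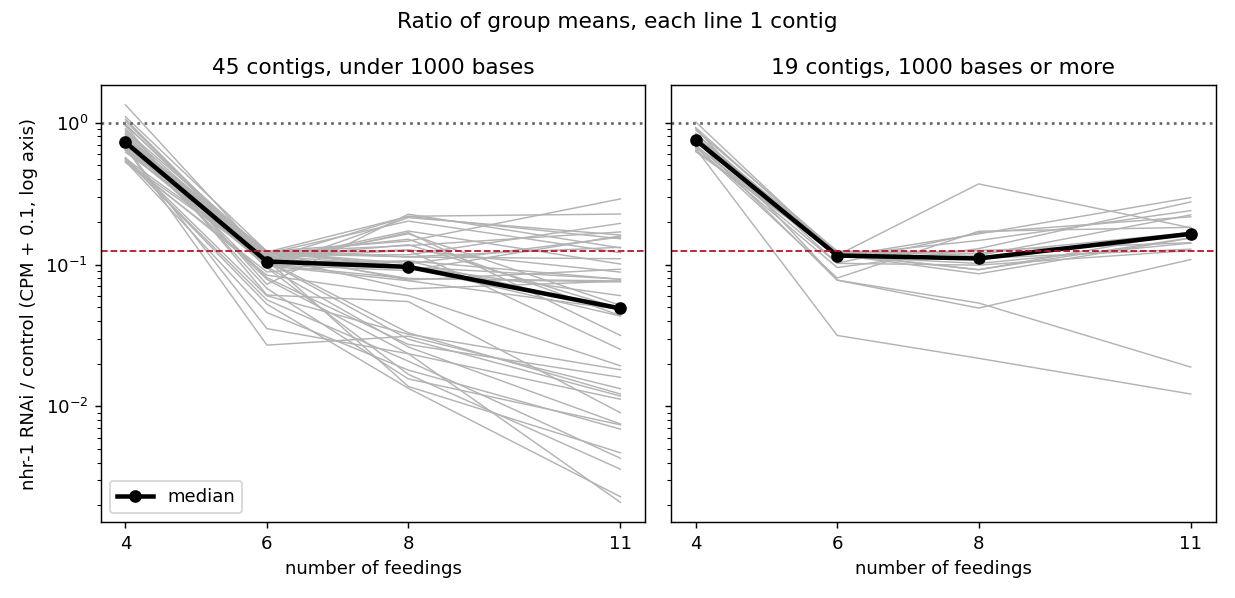
Ratio of nhr-1 RNAi to control group means (CPM + 0.1, log axis) against the number of feedings, for the 45 contigs shorter than 1000 bases (left) and the 19 of 1000 bases or more (right). Grey lines are contigs, the black line is their median, the dotted line marks equal levels, and the dashed line marks 0.125. The median of the shorter contigs ends at 0.049 and that of the longer ones at 0.165. The part of the control level in this was not tested.

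The most abundant contigs per kilobase were all short and had ratios of at most 0.0122 at 11 feedings. SmedSXL_015218 has 368 bases and had the highest control level of the 64 per kilobase, 7457 CPM per kilobase on average. At 4 feedings it stood at 384.5, 914.6, 2440 and 1229 CPM in nhr-1 RNAi replicates 1, s1, s2 and s3, and at 1829 to 2839 CPM in the 4 controls. It stood at 76.3, 210.5, 164.9 and 335.0 CPM in the same replicates at 6 feedings, against 1465 to 2436 CPM in the controls. Replicate 1 was the lowest nhr-1 RNAi library at both times.

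At 8 feedings SmedSXL_015218 stood at 107.0, 39.8, 42.4 and 124.2 CPM in replicates 1, s1, s2 and s3, against 1801 to 3023 CPM in the controls, a log2 fold change of -4.94 (SE 0.693, edgeR's adjusted p = 8.13e-06). At 11 feedings it stood at 57.4, 45.2, 41.7 and 66.3 CPM in replicates 1, s2, s3 and s4. The controls were 1642, 2600, 4389 and 8594 CPM in replicates 1, s1, s2 and s3, a log2 fold change of -6.97 (SE 0.762, edgeR's adjusted p = 1.91e-07). Every nhr-1 RNAi library was far below every control at both times. The 2 highest controls for SmedSXL_015218 are the libraries with the largest share of SmedSXL_088910, and without them and the third such library the log2 fold change was -5.40 (edgeR's adjusted p = 1.69e-07).

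Its neighbours in the numbering, SmedSXL_015215 (373 bases) and SmedSXL_015217 (306 bases), followed the same course. Over the libraries, the log2 counts of SmedSXL_015217 had a Pearson r of 0.995 with those of SmedSXL_015215 and of 0.992 with those of SmedSXL_015218. These contigs may carry reads of 1 transcript or of near-identical ones, and are reported as uncertain. SmedSXL_015217 stood at 1.67, 3.44, 2.35 and 2.89 CPM in nhr-1 RNAi replicates 1, s2, s3 and s4 at 11 feedings, against 422.7, 546.8, 1395 and 2408 CPM in control replicates 1, s1, s2 and s3. Its log2 fold change of -9.47 (SE 1.00, edgeR's adjusted p = 1.29e-07) was among the 3 lowest of the 64, and was -7.59 without the 3 libraries rich in SmedSXL_088910. SmedSXL_015215 changed by -5.93 at 8 feedings and -8.80 at 11 on the log2 scale.

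SmedSXL_004561 (223 bases), at 2247 CPM per kilobase the fourth in control level, had a control mean at 11 feedings of 467.0 CPM, close to the 552.7 CPM at 8. It stood at 121.8, 475.4, 547.4 and 443.2 CPM in nhr-1 RNAi replicates 1, s1, s2 and s3 at 4 feedings, against 356.4 to 535.6 CPM in the controls. Replicate 1 was again the low one and the other 3 lay among or above the controls. At 8 feedings SmedSXL_004561 stood at 18.4, 1.96, 1.38 and 12.4 CPM in replicates 1, s1, s2 and s3, against 429.1 to 656.5 CPM. By 11 feedings it was at 3.90, 4.20, 3.43 and 1.92 CPM in replicates 1, s2, s3 and s4, against 413.1, 381.5, 368.4 and 704.8 CPM in control replicates 1, s1, s2 and s3. Its log2 fold changes were -6.04 (SE 0.8003, edgeR's adjusted p = 3.96e-06) at 8 feedings and -7.60 (SE 0.867, edgeR's adjusted p = 3.09e-07) at 11.

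The lowest log2 fold change at 11 feedings was that of SmedSXL_034119 (290 bases). It stood at 0.372, 0.382, 0.361 and 0.137 CPM in nhr-1 RNAi replicates 1, s2, s3 and s4, against 21.4, 43.4, 265.3 and 439.8 CPM in control replicates 1, s1, s2 and s3. The log2 fold change was -9.93 (SE 1.29, edgeR's adjusted p = 1.42e-06). Without the 3 libraries rich in SmedSXL_088910 the change of SmedSXL_034119 was -6.72 (edgeR's adjusted p = 1.39e-06). The normalization was recomputed in that fit, and the part of the high control libraries alone was not tested. SmedSXL_006366 (510 bases) had -8.88 at 11 feedings, and -7.06 without the same 3 libraries.

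No contig of the 64 was at 0 in all libraries of a nhr-1 RNAi group, but 4 had at most 3 counts over the group. For these 4, pooled counts were scaled by the pooled sexual-assembly totals without SmedSXL_088910, with no 0.1 CPM added. For SmedSXL_005969, 1 count at 11 feedings stood against 235 in the controls. That is a control-to-knock-down ratio of 283 with an exact counting interval of 50.4 to 11235. SmedSXL_092503 had 1 count against 191, a ratio of 230 (40.8 to 9140). SmedSXL_009869 had 2 counts against 208, a ratio of 125 (34.3 to 1042). SmedSXL_042278 had 2 counts against 257, a ratio of 155 (42.4 to 1286). By group means with 0.1 CPM added, the control-to-knock-down ratios of these contigs at 11 feedings were 84.8, 75.3, 55.2 and 89.0 in the same order. The same 4 contigs had 2 or 3 counts at 8 feedings. These intervals cover counting error only. The names of the last 3 were chosen after their values were seen.

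**Figure D3:**
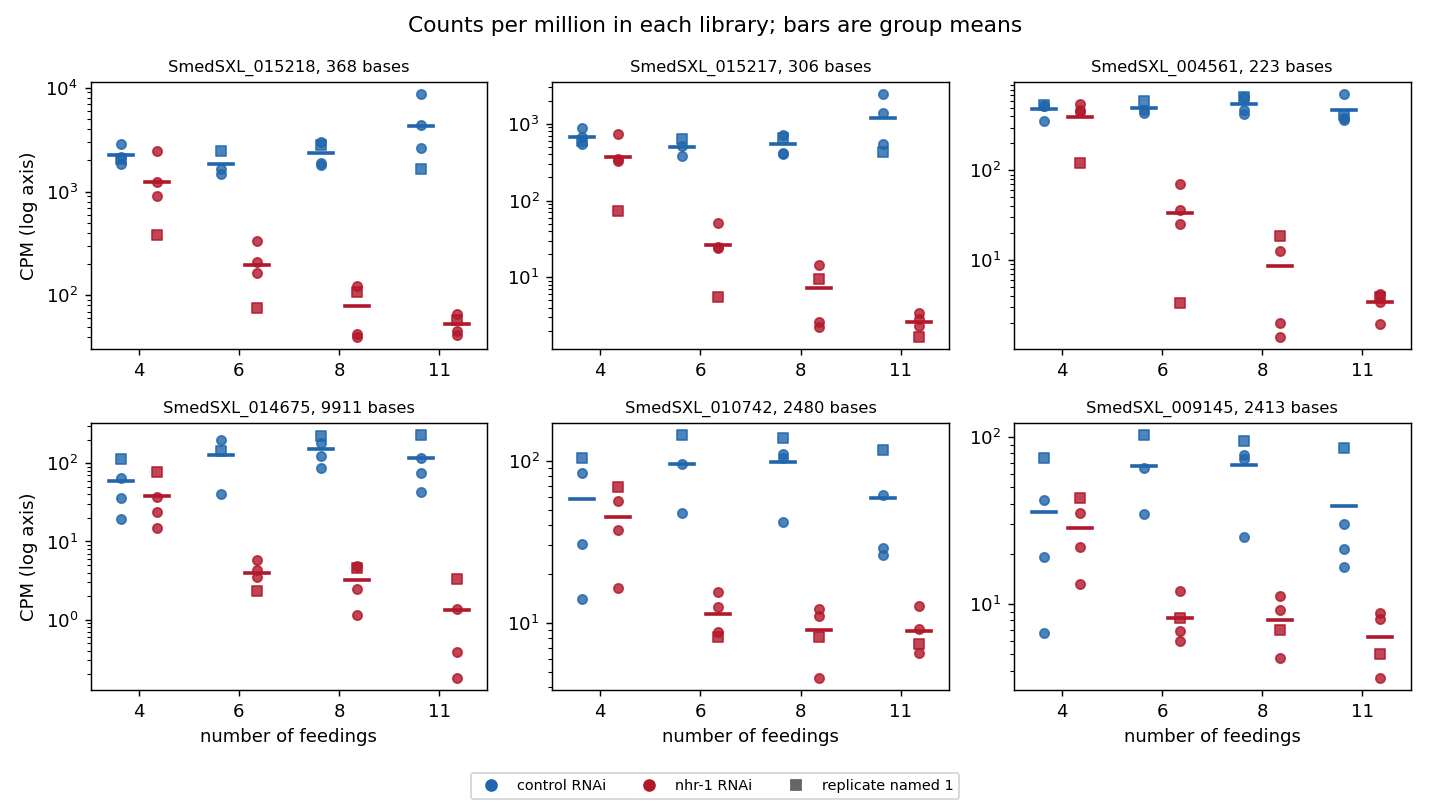
CPM (log axis) of 6 contigs in each library by number of feedings. Points are libraries, squares mark replicates named 1, and bars are group means. The nhr-1 RNAi means of the 3 short contigs in the upper row are lower at each later time, to 52.6, 2.58 and 3.36 CPM at 11 feedings, while that of SmedSXL_010742 is 8.98 CPM at 8 feedings and 8.94 CPM at 11.

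The longest contig, SmedSXL_014675 with 9911 bases, had the lowest ratio at 11 feedings of the 19 long ones, 0.0122. It stood at 78.2, 23.95, 14.8 and 37.0 CPM in nhr-1 RNAi replicates 1, s1, s2 and s3 at 4 feedings, against 115.2, 19.2, 65.1 and 35.8 CPM in the controls of the same names. It stood at 2.32 to 5.77 CPM at 6 feedings, against 41.0 to 201.2 CPM. At 11 feedings SmedSXL_014675 stood at 3.34, 0.382, 0.18 and 1.38 CPM in replicates 1, s2, s3 and s4, against 228.3, 116.5, 75.9 and 43.0 CPM in control replicates 1, s1, s2 and s3. Its control level was highest in replicate 1, not in the libraries rich in SmedSXL_088910. The log2 fold changes were -5.53 (SE 0.658, edgeR's adjusted p = 1.18e-06) at 8 feedings and -6.65 (SE 0.711, edgeR's adjusted p = 1.45e-07) at 11.

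SmedSXL_010742 (2480 bases) stayed level after 6 feedings. Under nhr-1 RNAi it stood at 68.9, 37.5, 16.4 and 56.6 CPM in replicates 1, s1, s2 and s3 at 4 feedings, and at 8.13, 15.6, 12.5 and 8.79 CPM at 6. It stayed at 8.19, 4.57, 11.0 and 12.1 CPM in the same replicates at 8 feedings and at 7.43, 6.49, 9.20 and 12.6 CPM in replicates 1, s2, s3 and s4 at 11. These 3 sets of values overlap.

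The controls of SmedSXL_010742 spread widely at 4 feedings, from 103.8 CPM in replicate 1 to 14.1 CPM in replicate s1. They were 42.1 to 138.7 CPM at 8 feedings and 117.2, 61.8, 26.2 and 29.0 CPM in replicates 1, s1, s2 and s3 at 11. The log2 fold change of SmedSXL_010742 was -3.41 (SE 0.489, edgeR's adjusted p = 1.025e-05) at 8 feedings and -2.90 (SE 0.481, edgeR's adjusted p = 4.08e-05) at 11, and -3.38 without the 3 libraries rich in SmedSXL_088910. The nhr-1 RNAi libraries lay below all controls at both times.

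SmedSXL_009145 (2413 bases), the contig nearest the limit at 6 feedings, had a similar course. It stood at 6.99, 4.74, 11.2 and 9.29 CPM in nhr-1 RNAi replicates 1, s1, s2 and s3 at 8 feedings and at 5.02, 3.63, 8.84 and 8.11 CPM in replicates 1, s2, s3 and s4 at 11. The controls were 25.1 to 94.7 CPM at 8 feedings and 16.8 to 86.0 CPM at 11. Its log2 fold change was -3.03 (SE 0.508, edgeR's adjusted p = 7.24e-05) at 8 feedings and -2.78 (SE 0.510, edgeR's adjusted p = 0.000142) at 11. SmedSXL_004464 (902 bases) had log2 fold changes of -3.16 and -3.54 at 8 and 11 feedings.

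A few contigs were not called. SmedSXL_013473 (243 bases) was the only one of the 64 not called lower at 11 feedings. It stood at 0.186, 1.15, 0.722 and 1.65 CPM in nhr-1 RNAi replicates 1, s2, s3 and s4 and at 10.014, 1.498, 1.94 and 0.281 CPM in control replicates 1, s1, s2 and s3, a log2 fold change of -2.04 (SE 0.805, edgeR's adjusted p = 0.0569). Control replicates 1 and s2 stood above every nhr-1 RNAi library, s2 by little, and the other controls lay among them. Over its alternatives the adjusted p of SmedSXL_013473 ran from 0.0283 to 0.626. It was called without control replicate s1 (edgeR's adjusted p = 0.0331) and without control replicate s3 (0.0469), among others. At 8 feedings SmedSXL_013473 was called (log2 fold change -2.79, edgeR's adjusted p = 0.0125), but not without nhr-1 RNAi replicate s1 (0.0591). SmedSXL_085766 and SmedSXL_076484, the other contigs with the highest log2 fold changes at 11 feedings, were called at -2.0003 and -2.13 (edgeR's adjusted p = 0.0145 and 0.0118). Both calls were lost without control replicate 1, where the adjusted p-values of SmedSXL_085766 and SmedSXL_076484 were 0.068 and 0.0759.

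Not called lower at 8 feedings were SmedSXL_008518, SmedSXL_082088 and SmedSXL_083547, with log2 fold changes of -2.25 (SE 0.785), -2.17 (SE 0.906) and -1.45 (SE 0.498). The adjusted p-values from edgeR were 0.0608, 0.1475 and 0.0551. Without control replicate s1 at 8 feedings all 3 were called (0.036, 0.0353 and 0.037), and without nhr-1 RNAi replicate s2 SmedSXL_082088 was called too (0.0423). For SmedSXL_082088 (507 bases) control replicate s1 was at 0 CPM at 8 feedings, while the other controls were at 3.64 to 5.58 CPM and the nhr-1 RNAi libraries at 0 to 1.996 CPM. All 3 were called at 11 feedings, at -2.93, -3.67 and -2.96. The call of SmedSXL_082088 was lost at 11 feedings with the replicate block (log2 fold change -3.00, edgeR's adjusted p = 0.0913). It was lost too without control replicate s2 (0.0888), without nhr-1 RNAi replicate s4 (0.0582) and without the 3 libraries rich in SmedSXL_088910 (0.0532). That of SmedSXL_008518 was lost without control replicate 1 (edgeR's adjusted p = 0.164).

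The highest ratios at 4 feedings were 1.34 for SmedSXL_010808 (218 bases) and 1.10 for SmedSXL_013473. SmedSXL_010808 stood at 4.02, 2.74, 1.29 and 4.79 CPM in nhr-1 RNAi replicates 1, s1, s2 and s3 and at 3.21, 0.446, 2.69 and 3.15 CPM in the controls, which overlap. It was called lower at 8 feedings (log2 fold change -2.25, edgeR's adjusted p = 0.00262) and at 11 (-2.52, edgeR's adjusted p = 0.00161). The call of SmedSXL_010808 at 11 feedings was lost with total counts alone (edgeR's adjusted p = 0.0522) and in libraries with an s name (log2 fold change -1.51, edgeR's adjusted p = 0.0755). Without control replicate 1 at 11 feedings its log2 fold change was -1.75 (edgeR's adjusted p = 0.025). The lowest ratios were those of SmedSXL_036857 and SmedSXL_005969 given above. SmedSXL_036857 was called at 8 and 11 feedings with log2 fold changes of -3.38 and -4.26.

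Within nhr-1 RNAi the level of the 64 contigs was also compared between 11 and 8 feedings, using libraries that did not enter the choice. By the edgeR test 0 of the 64 differed, and 0% of all tested sequences did. At an unadjusted p under 0.05, 2 of the 64 were lower and 0 higher, where 0.367% of all tested sequences were lower and 0.168% higher. DESeq2 called 0 of the 64. Means at 11 feedings were below those at 8 for 48 of the 64. The median log2 fold change was -0.35, with a median SE of 0.663, from -2.12 to 0.76. For SmedSXL_015217 it was -1.43 (SE 0.775), and for SmedSXL_010742 it was 0.02 (SE 0.464). No change within nhr-1 RNAi from 8 to 11 feedings was thus called. With only these nhr-1 RNAi groups in the fit, 18 of the 64 passed the filter on low counts. In that fit 0 of the 18 and 0 of 37969 sequences were called. The other contigs had too few counts in these groups to pass, so the absence of a call says little about them.

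The change of the RNAi effect from 8 to 11 feedings was not called for any of the 64 by edgeR or DESeq2. At an unadjusted p under 0.05 by edgeR, 14 of the 64 had a more negative effect at 11 feedings, where 8.16% of all tested sequences did and 0.564% had the opposite, and without the 3 libraries rich in SmedSXL_088910 it was 1 of the 64. The median difference of the log2 fold changes was -0.98, and -0.18 without those libraries.

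Some contigs of the 64 instead rose in the control between 8 and 11 feedings. By edgeR, 8 were higher at 11 feedings and 0 lower, where 6.09% of all tested sequences were higher and 0.0743% lower. The choice had capped the control at 8 feedings by its ratio to 4 feedings, which can favour a later rise among the 64. Without that cap the choice would hold 67 contigs. They were 280 to 715 bases long, and all 8 had ratios of at most 0.101 at 11 feedings. SmedSXL_034119 had the largest rise, a log2 fold change of 3.10 (SE 0.869, edgeR's adjusted p = 0.0374), from 37.1 to 192.5 CPM on average. Without control replicate s2 or s3 at 11 feedings 0 of the 64 and 0 of all tested sequences were called. The same held without any 1 of control replicates 1, s2 or s3 at 8 feedings, or without the 3 libraries rich in SmedSXL_088910. Without control replicate s1 at 8 feedings 1 of the 64 was called, where 2041 of 45594 sequences were higher and 11 lower. Without control replicate 1 at 11 feedings 25 of the 64 differed, of which 23 were higher. In that fit 8223 of 45414 sequences were higher and 3722 lower. Of the 15 control libraries compared, replicate s3 at 11 feedings was the highest for 24 of the 64 contigs (37.5%), against 11.2% of the 14894 contigs with at least 5 CPM. It was the highest for 55.8% of the 104 contigs that met every condition but the ratio at 4 feedings, so this is not particular to the 64. The part of that library's composition in the rise was not tested.

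In features the choice did not use, the 64 contigs were short and mostly without a close match in the asexual assembly. Their median length was 652 bases, from 204 to 9911, against 1391 bases for the 14894 contigs, and 70.3% were shorter than 1000 bases against 31.8%. The 104 contigs that met every condition but the ratio at 4 feedings were shorter still, with a median of 527.5 bases and 84.6% under 1000. A match was an asexual-assembly contig with a total count within 5% and a Pearson r of log2 counts above 0.99. Such a match was found for 7 of the 64 (10.9%) and for 68.1% of the 14894. It was found for 21.2% of those 104, and for 15.7% of the 2306 contigs that met the other conditions at a ratio from 0.125 to 0.5 at 6 feedings. Neither trait is thus particular to the 64. With r over 0.95 it was 26 of 64 (40.6%) against 84.0%. Both figures compare counts and not sequences. The median control level was 14.1 CPM for the 64, 54.5 CPM for those 104, 22.0 CPM for the 2306 and 23.1 CPM for the 14894. Per kilobase it was 21.7 CPM for the 64 and 16.6 CPM for the 14894. The part of the count level in the share of matches was not tested. The 7 matched contigs included SmedSXL_015217 and SmedSXL_034119, had a median length of 350 bases and a median ratio of 0.0193 at 11 feedings, against 0.101 for the other 57.

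**Figure D4:**
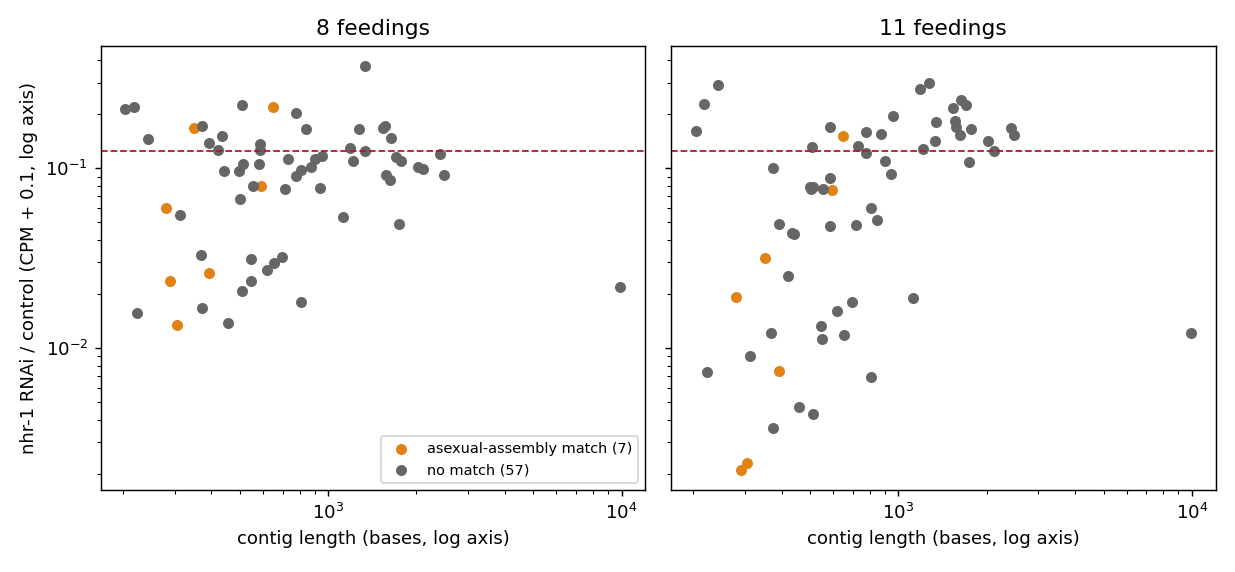
Ratio of nhr-1 RNAi to control group means (CPM + 0.1, log axis) against contig length (bases, log axis) at 8 and 11 feedings. Each point is 1 of the 64 contigs, orange points have an asexual-assembly match, and the dashed line marks 0.125. At 11 feedings the lowest ratios, down to 0.0021, belong to short contigs, and among the long ones the 9911-base contig lies at 0.0122 and SmedSXL_019102 (1122 bases) at 0.0189.

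The neighbouring sets give the scale of these values. The 104 contigs that met every condition except the ratio at 4 feedings had median ratios of 0.234 at 4 feedings, 0.0178 at 8 and 0.0069 at 11, and a median control level of 95.2 CPM per kilobase. The 2306 contigs with a ratio from 0.125 to 0.5 at 6 feedings that met the other conditions had 0.789, 0.221 and 0.249 at 4, 8 and 11 feedings. The 64 contigs lay between these sets at 8 and 11 feedings, with 0.1003 and 0.0836. Since the sets were chosen by their ratios at 4 and 6 feedings, no test was made between them. The control library labelled 7 feedings entered neither the choice nor any test. It was above every nhr-1 RNAi library at 6 feedings for 56 of the 64 contigs. The choice required low levels in those nhr-1 RNAi libraries, so this count follows largely from it and is a description. The share over contigs outside the 64 is not given here.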

How the data were processed

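The authors deposited 1 table of raw read counts on named transcript contigs with their lengths. Bowtie2 is named in the submitters' processing notes, with no version; the counting program, the strand setting and the build were not given in the sources used here. One row that names no sequence held 0 counts and was left out, and 0 columns were left unused. Titles gave the groups and replicate names; the descriptions give the knock-down's name and number 2 controls at 11 feedings differently.

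Contigs were chosen, and CPM computed, as the report describes (Python 3.11.15, pandas 2.3.3). The contigs and tests were chosen with earlier results of these data known. Tests used edgeR 4.0.16 in R 4.3.3 on the deposited counts of 31 libraries, with TMM normalization, filterByExpr (minimum count 10, minimum total 15), 1 mean per group and no covariate. Library factors ranged from 0.353 to 1.40. The Benjamini-Hochberg adjustment covered 45762 sequences. Standard errors are log2 fold changes over the square root of F. The script was tested on simulated data. DESeq2 1.42.0 was an alternative.

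Named contigs were those with the highest control level per kilobase, the extreme log2 fold changes at 11 feedings, the extreme ratios at 4 feedings, those nearest the limits, those not called, and the longest. Same-named libraries of both groups at 11 feedings deviated together (r from 0.173 to 0.427 over 3 pairs, by titles), which meets the criterion for pairing (every r over 0.1), although pairs of other names reached 0.31. At 8 feedings the lowest of 4 pairs was 0.006. The counts reported come from the fit without the block, and the blocked fit is an alternative. Transcripts can be counted on several contigs, so contigs are not genes.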

Additional observations from a re-analysis of the deposited data

Results flagged for a closer look

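Of 147 groups of 4 libraries examined, 16 had a library whose gap to its nearest neighbour exceeded Dixon's 95% critical value as a share of the range. For independent, normally distributed values chance gives about 1 in 20. The groups here share libraries and some hold very low counts, so the number of flags cannot be judged against that rate. The causes were not tested.

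In the control at 11 feedings, replicate 1 stood apart for 4 contigs with low counts. It held SmedSXL_008518 at 11.634 CPM against 0.563 to 2.262 in the others, and SmedSXL_010808 at 6.922 CPM against 1.125 to 1.665. It held SmedSXL_013473 at 10.014 CPM against 0.281 to 1.939, and SmedSXL_076484 at 10.014 CPM against 1.939 to 2.663. Replicate s3 of that group held SmedSXL_004561 at 704.784 CPM against 368.447 to 413.081, and SmedSXL_036857 at 15.756 CPM against 5.16 to 6.774. In other control groups, replicate 1 at 8 feedings held SmedSXL_085766 at 12.923 CPM against 4.926 to 6.219. Replicate s1 at 4 feedings held SmedSXL_004561 at 356.391 CPM, below 521.304 to 535.557.

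Under nhr-1 RNAi at 11 feedings, replicate s4 held SmedSXL_008518 at 1.1 CPM against 0.361 to 0.382 and SmedSXL_076484 at 2.062 CPM against 0.722 to 0.763. It held SmedSXL_034119 at 0.137 CPM, below 0.361 to 0.382. The median of the 64 contigs was 1.168 CPM in that library against 0.722 to 0.763. Replicate s2 held SmedSXL_005969 at 0.191 CPM, which is 1 count, with 0 in the others. At 6 feedings the median of the 64 contigs in replicate 1 was 0.774 CPM, below 1.59 to 1.647. At 8 feedings replicate s1 held SmedSXL_083547 at 0.817 CPM, below 1.326 to 1.382. At 4 feedings replicate s3 held SmedSXL_004464 at 18.937 CPM against 12.617 to 13.226.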

How the results depend on the processing

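At 8 feedings 59 to 64 of the 64 contigs were lower without any 1 library, and 60 to 64 under the other alternatives (another normalization, no filter on low counts, DESeq2, sexual-assembly contigs only, only the groups compared, the replicate block, libraries with an s name, and without the 3 libraries rich in SmedSXL_088910). At 11 feedings it was 59 to 64 without any 1 library and 52 to 64 otherwise, with 52 of 52 tested when only the groups compared entered. In every alternative that tested them, 59 contigs were called lower at 8 feedings and 57 at 11. Scaling by total counts alone moved the median log2 fold change of all tested sequences at 11 feedings from 0.14 to 0.57, and 57 of the 64 were still lower, with a median of -3.25.

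Within nhr-1 RNAi between 11 and 8 feedings, and for the change of the effect, 0 of the contigs tested were called by edgeR or DESeq2 in every alternative. All 64 were tested, except that 18 were tested within nhr-1 RNAi when only the groups compared entered. Between the controls at 11 and 8 feedings, where 8 were called, 0 were called with total counts alone, with only the groups compared and without the 3 libraries rich in SmedSXL_088910. In these settings 0 of all tested sequences were called too. The count was 1 with the replicate block, 21 in libraries with an s name, and 0 to 25 without 1 library. With the block 1389 of 45762 sequences were higher and 146 lower. In libraries with an s name 6759 of 45578 were higher and 2604 lower. The cause was not tested. With the replicate block 61 were lower at 8 feedings and 62 at 11. At 8 feedings and between feedings the shared names are only names.

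Of 638 values of named contigs under alternatives, 602 kept their direction and call, 18 lost the call, 18 gained it and 0 reversed. The changes fell on SmedSXL_008518, SmedSXL_010808, SmedSXL_013473, SmedSXL_076484, SmedSXL_082088, SmedSXL_083547 and SmedSXL_085766. The cause was not tested.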
